A study of Saccharomyces cerevisiae with 15 samples.

Results

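Thiamine, vitamin B1, is built by yeast from a thiazole and a pyrimidine, or taken up from the medium. It is then converted to thiamine diphosphate, the cofactor of pyruvate decarboxylase, pyruvate dehydrogenase, transketolase and related enzymes. The genes for synthesis and uptake are known to be repressed when thiamine is plentiful and to be turned on, when it is scarce, by a set of dedicated regulators. The genes described here are the transporter gene THI7, the precursor genes THI4, THI20, THI21 and THI22, THI6, which joins them, THI80, which makes the cofactor, and the regulator genes THI2, THI3 and PDC2. They were chosen by name. All 10 were measured among 5449 S. cerevisiae genes, each by a single probe set, and all 10 lay above the background level in every group.

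RNA came from Saccharomyces cerevisiae BY4741, a haploid laboratory line with the a mating type, grown in YPD, a rich medium that contains thiamine, with 2% glucose at 30 °C. Cells were taken at day 3 and parted by density on Percoll. The groups were Rho0 low density (the light cells of a BY4741 derivative without mitochondrial DNA, which cannot respire), WT low density and WT high density, with 5 biological replicates each and 1 Affymetrix Yeast Genome 2.0 array per replicate. No dense fraction of the Rho0 strain was among the samples, so that Rho0 low density and WT high density differ in both genotype and density. The labels do not say whether the replicates came from separate cultures. If they did not, p-values measure only the spread between these samples.

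Values are log2 signals after RMA, the normalization the authors used, and each measures a transcript relative to the others on its array. The number of arrays limits the precision. The background level was 2.56 log2, the 95th percentile of the means of the probe sets for another yeast, Schizosaccharomyces pombe, on the same arrays. None of the 46 genes of mitochondrial DNA in the reference table had a named probe set, so that the Rho0 label was not checked here. Of the strain markers deleted in BY4741, URA3 and MET17 stayed under the background level in every group mean, while LEU2 lay between 2.67 and 2.90 and HIS3, whose deletion in this strain is known to be partial, between 5.87 and 6.09. The HIS3 signal, well above background on all 15 arrays, does not by itself check the strain. The 25S ribosomal RNA, read near its 5′ end, gave 7.75 ± 0.27 in Rho0 low density, 11.36 ± 0.45 in WT low density and 7.87 ± 0.13 in WT high density (mean ± SD, n = 5 each). Read near the middle it gave 13.28 ± 0.15, 14.17 ± 0.04 and 10.99 ± 0.32 in the same order of groups, with both light groups above WT high density. Near its 3′ end it gave 14.24 ± 0.02, 14.16 ± 0.02 and 13.94 ± 0.14, with the groups much closer together. Whether these gaps reflect RNA quality, labelling or the amount of ribosomal RNA was not tested. Marker genes of sporulating cells averaged 3.74 to 3.83 per array in Rho0 low density, 3.33 to 3.59 in WT low density and 4.996 to 5.23 in WT high density. Of these 6 genes, 5 were lower in WT low density than in WT high density, against 41.1% of all genes. Counts of marker genes are at an adjusted p under 0.05 (limma). Rho0 low density had 4 lower than WT high density and 1 higher, against 34.4% and 37.9% of all genes. The higher one was SPO11 (3.14 against 2.55, the latter under the background level). NDT80 was alike in these groups (3.79 and 3.80). SPS1 averaged 2.00 in Rho0 low density and 2.20 in WT low density, both under the background level, against 3.12 in WT high density. SPO11 and SPO19 in WT low density were also under that level, at 2.33 and 2.19. All 4 markers of the alpha mating type were lower in WT low density than in WT high density, against 41.1% of all genes. MF(ALPHA)1 was under the background level in Rho0 low density (2.24) and WT low density (2.26). Array means of the 4 were 4.28 to 4.55 in Rho0 low density, 4.42 to 4.85 in WT low density and 5.48 to 5.94 in WT high density. All 6 of the a mating type were higher in WT low density than in WT high density, against 26.2% of all genes. Their array means were 6.81 to 7.18, 7.09 to 7.29 and 5.93 to 6.11 in the same order of groups. In Rho0 low density 2 of these 6 were higher and 3 lower than in WT low density, against 44.6% and 22.7% of all genes. Against WT high density 5 were higher and 1, MFA1, was lower in Rho0 low density (8.24 against 9.24). The shares of all genes were 37.9% and 34.4%. BAR1 was under the background level in WT high density (2.40). What these marker genes reflect in a haploid line with the a mating type was not tested. Nor was their part, or that of the ribosomal RNA signal, in the results below.

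WT low density cells had less mRNA of the thiamine precursor genes and of the transporter gene than WT high density cells, and more of the gene for the last enzyme, THI80. THI4, which makes the thiazole, was 8.19-fold lower, and THI20, which phosphorylates the pyrimidine, was 3.99-fold lower. The joining enzyme gene THI6 and the regulator genes THI2, THI3 and PDC2 did not pass the test. In all, 5 of the 10 genes were lower and 1 was higher at an adjusted p under 0.05 (limma, Benjamini-Hochberg over 5449 genes), against 41.1% of all genes lower and 26.2% higher. The 6 genes called compare with 67.2% of all genes in either direction, a share near theirs. The median difference of the 10 genes was -0.42 log2, against -0.17 for all genes. At least 2-fold lower were 3 of the 10 (THI4, THI20 and THI21) and 0 were at least 2-fold higher, against 16.3% and 11.7% of all genes. For THI4, THI7, THI20 and THI21 every WT low density array lay below every WT high density array, 4 of the 10 genes, while 28.3% of all genes were lower, 19.6% higher and 47.9% either way without overlap. In bulk RNA, fewer cells of a kind and less RNA per cell cannot be told apart.

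**Figure D1:**
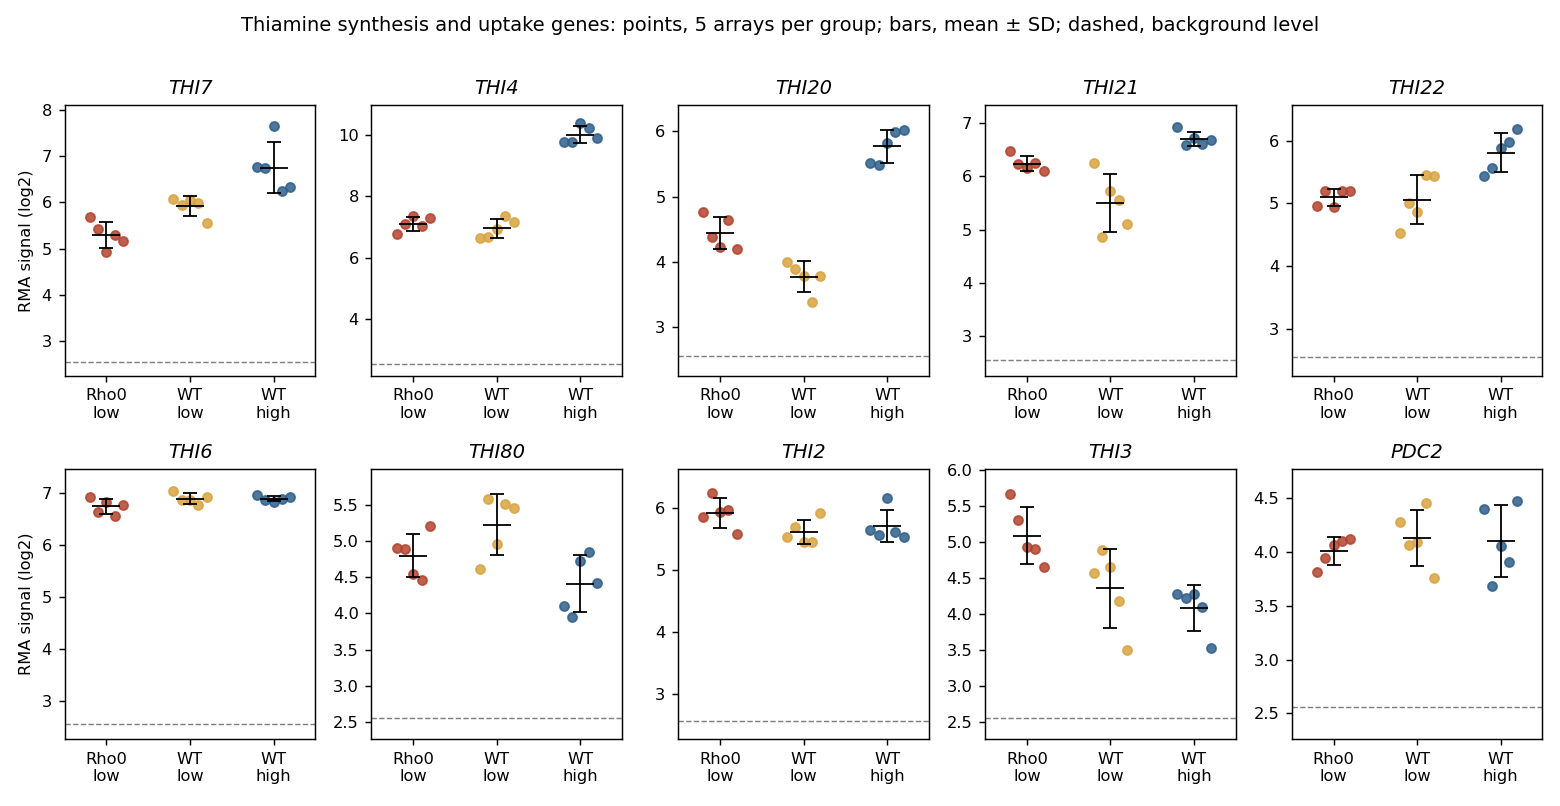
RMA signal (log2, vertical axes) of the 10 thiamine genes on each of the 15 arrays. Points are single arrays of Rho0 low density, WT low density and WT high density cells, black bars give mean ± SD of 5 arrays, and the dashed line is the background level of 2.56. THI4 lies between 9.75 and 10.37 in WT high density, above all 10 arrays of light cells, while THI6 lies between 6.57 and 7.05 on all 15 arrays.

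THI4 (YGR144W) is the thiazole synthase, known as an enzyme that gives up a sulfur atom of its own and works only once. Its signal was 6.77, 7.10, 7.35, 7.03 and 7.28 in Rho0 low density. In WT low density it was 6.65, 6.69, 6.95, 7.35 and 7.18. The WT high density arrays read 9.77, 9.75, 10.37, 10.22 and 9.88. Both light groups overlapped with each other and lay well below every dense array. The difference of WT low density from WT high density was -3.03 ± 0.16 log2 (difference ± SE, limma adjusted p = 2.11e-11), which held rank 47 in size among 5449 genes. Rho0 low density lay below WT high density by a similar size, at -2.89 ± 0.16 (adjusted p = 1.2e-11), or 7.41-fold. Between Rho0 low density and WT low density the difference was 0.14 log2 with a 95% interval from -0.20 to 0.49 (adjusted p = 0.448).

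THI20 (YOL055C), THI21 (YPL258C) and THI22 (YPR121W) form a family. The proteins of THI20 and THI21 are kinases of the pyrimidine, and that of THI22 is a relative that is not known to carry out this step. THI20 read 4.76, 4.38, 4.23, 4.65 and 4.20 in Rho0 low density. Its WT low density values were 4.01, 3.90, 3.79, 3.38 and 3.79. The WT high density values were 5.52, 5.48, 5.83, 5.995 and 6.02. The 3 groups did not overlap, with WT low density lowest and WT high density highest. Each pair of groups differed for THI20, WT low density from WT high density by -1.997 ± 0.15 log2 (limma adjusted p = 1.96e-09), Rho0 low density from WT low density by 0.67 ± 0.15 (adjusted p = 0.000786) and Rho0 low density from WT high density by -1.33 ± 0.15 (adjusted p = 2.63e-07). The call between the light groups was lost after a quantile normalization of S. cerevisiae genes (0.27, adjusted p = 0.126).

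THI21 had the same order of group means. Its signal was 6.47, 6.23, 6.15, 6.25 and 6.10 in Rho0 low density. In WT low density it was 6.25, 4.86, 5.72, 5.55 and 5.10, a wide spread in which replicate 1 reached the Rho0 range. The values in WT high density were 6.91, 6.59, 6.72, 6.61 and 6.67, above all light arrays. WT low density was 2.31-fold lower than WT high density (-1.20 ± 0.19 log2, adjusted p = 1.97e-05), and Rho0 low density was 1.67-fold higher than WT low density (0.74 ± 0.19, adjusted p = 0.00211). Rho0 low density was lower than WT high density by 0.46 ± 0.19 log2 with an adjusted p = 0.0363. That call was lost (adjusted p between 0.0519 and 0.0773) when any single array among Rho0 low density replicates 2, 3, 4 and 5 and WT high density replicates 1, 3 and 5 was left out, and with 2 other scalings given below.

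THI22 read 4.96, 5.19, 4.94, 5.20 and 5.20 in Rho0 low density. Its values in WT low density were 4.54, 5.005, 4.87, 5.45 and 5.44. WT high density gave 5.44, 5.56, 5.88, 5.98 and 6.18, and the lowest of these fell within the WT low density range. WT low density was lower than WT high density by 0.75 ± 0.17 log2 (limma adjusted p = 0.000979), and Rho0 low density by 0.71 ± 0.17 (adjusted p = 0.00129). The light groups differed by 0.04 log2 with a 95% interval from -0.33 to 0.40. The 95% intervals of the WT low density difference ran from -2.32 to -1.68 for THI20, from -1.60 to -0.81 for THI21 and from -1.11 to -0.38 for THI22. Whether the 3 genes differ in their change was not tested.

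THI7 (YLR237W), the thiamine transporter of the plasma membrane, had group means that rose in steps from Rho0 low density over WT low density to WT high density. Its Rho0 low density values were 5.69, 5.42, 4.92, 5.29 and 5.17. Those of WT low density were 6.08, 5.94, 6.05, 5.98 and 5.56. WT high density had 6.76, 6.75, 7.64, 6.25 and 6.34, with replicate 3 highest. The dense arrays lay above all light arrays, and the light groups overlapped in 1 array each, Rho0 low density replicate 1 at 5.69 and WT low density replicate 5 at 5.56. WT low density was lower than WT high density by 0.82 ± 0.21 log2 (limma adjusted p = 0.00214), and the Rho0 cells differed from WT low density by -0.63 ± 0.21 (adjusted p = 0.014). From WT high density Rho0 low density differed by -1.45 ± 0.21 (adjusted p = 5.32e-06), or 2.73-fold. With arrays aligned on the poly-A spike-ins, bacterial RNAs added before labelling, the light groups differed by 0.06 (adjusted p = 0.854), and that call was lost.

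THI6 (YPL214C), a bifunctional enzyme that salvages the thiazole and joins it with the pyrimidine to thiamine phosphate, had the narrowest range of the 10 over the 15 single arrays, 6.57 to 7.05. Its means were 6.75 ± 0.15 in Rho0 low density, 6.90 ± 0.10 in WT low density and 6.90 ± 0.05 in WT high density (SD, n = 5 each). The 95% interval of the difference between WT low density and WT high density ran from -0.21 to 0.21 log2 (limma adjusted p = 0.995). Those between Rho0 low density and the WT groups ran from -0.36 to 0.07 against either one. THI6 was lower in Rho0 low density by 0.31 log2 in both of these comparisons, with an adjusted p = 0.00968 and 0.00791, when only S. cerevisiae genes entered a quantile normalization. With the poly-A spike-ins it went the other way, to 0.53 against WT low density (adjusted p = 0.017) and 0.30 against WT high density (adjusted p = 0.178).

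THI80 (YOR143C), the pyrophosphokinase that turns thiamine into its diphosphate, was the only one of the 10 that rose in WT low density as deposited, and THI3 joined it under another scaling given below. Its Rho0 low density values were 4.90, 4.89, 4.55, 4.46 and 5.21. WT low density read 4.62, 5.58, 4.95, 5.51 and 5.45. In WT high density the values were 4.10, 3.95, 4.73, 4.85 and 4.42. All groups overlapped with each other. WT low density was 1.75-fold higher than WT high density (0.81 ± 0.21 log2, limma adjusted p = 0.00228). Rho0 low density lay between them, 0.42 ± 0.21 below WT low density (adjusted p = 0.0819) and 0.39 ± 0.21 above WT high density (adjusted p = 0.106). The first of these passed without Rho0 low density replicate 5 (-0.53, adjusted p = 0.0425) or WT low density replicate 1 (-0.58, adjusted p = 0.0176), and the second without WT high density replicate 4 (0.50, adjusted p = 0.0454).

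Of the regulator genes, THI3 (YDL080C), whose protein resembles pyruvate decarboxylase and senses thiamine diphosphate, was higher in Rho0 low density. It read 5.66, 5.30, 4.92, 4.90 and 4.65 there. In WT low density it read 4.57, 4.88, 4.65, 4.17 and 3.49. The WT high density values were 4.28, 4.23, 4.27, 4.10 and 3.52. Every Rho0 array lay above the WT high density arrays, and 1 of them reached the WT low density range. THI3 rose in Rho0 low density by 0.73 ± 0.24 log2 over WT low density (limma adjusted p = 0.0105) and by 1.01 ± 0.24 over WT high density (adjusted p = 0.000859), or 2.01-fold. The first of these calls was lost after quantile normalization (0.38, adjusted p = 0.143). Between WT low density and WT high density it differed by 0.27 ± 0.24 (adjusted p = 0.318), and by 0.49 (adjusted p = 0.045) without WT low density replicate 5.

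THI2 (YBR240C), a zinc finger activator of the thiamine genes, averaged 5.91 ± 0.24 in Rho0 low density, 5.61 ± 0.20 in WT low density and 5.70 ± 0.26 in WT high density. Its difference between Rho0 low density and WT low density was 0.31 ± 0.15 log2 with a limma adjusted p = 0.074. That p was 0.0299, 0.0331 and 0.0418 without Rho0 low density replicate 5, WT low density replicate 5 and WT high density replicate 3, with differences of 0.39, 0.38 and 0.31. Without the last of these arrays Rho0 low density was also higher than WT high density by 0.33 (adjusted p = 0.038), against 0.21 ± 0.15 (adjusted p = 0.199) with all arrays. PDC2 (YDR081C), a transcription factor needed for pyruvate decarboxylase genes and for the thiamine genes, averaged 4.01 ± 0.13 in Rho0 low density, 4.13 ± 0.26 in WT low density and 4.10 ± 0.33 in WT high density. The 95% intervals of its differences ran from -0.30 to 0.35 for WT low density against WT high density, from -0.45 to 0.21 between Rho0 low density and WT low density, and from -0.42 to 0.23 for Rho0 low density against WT high density.

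**Figure D2:**
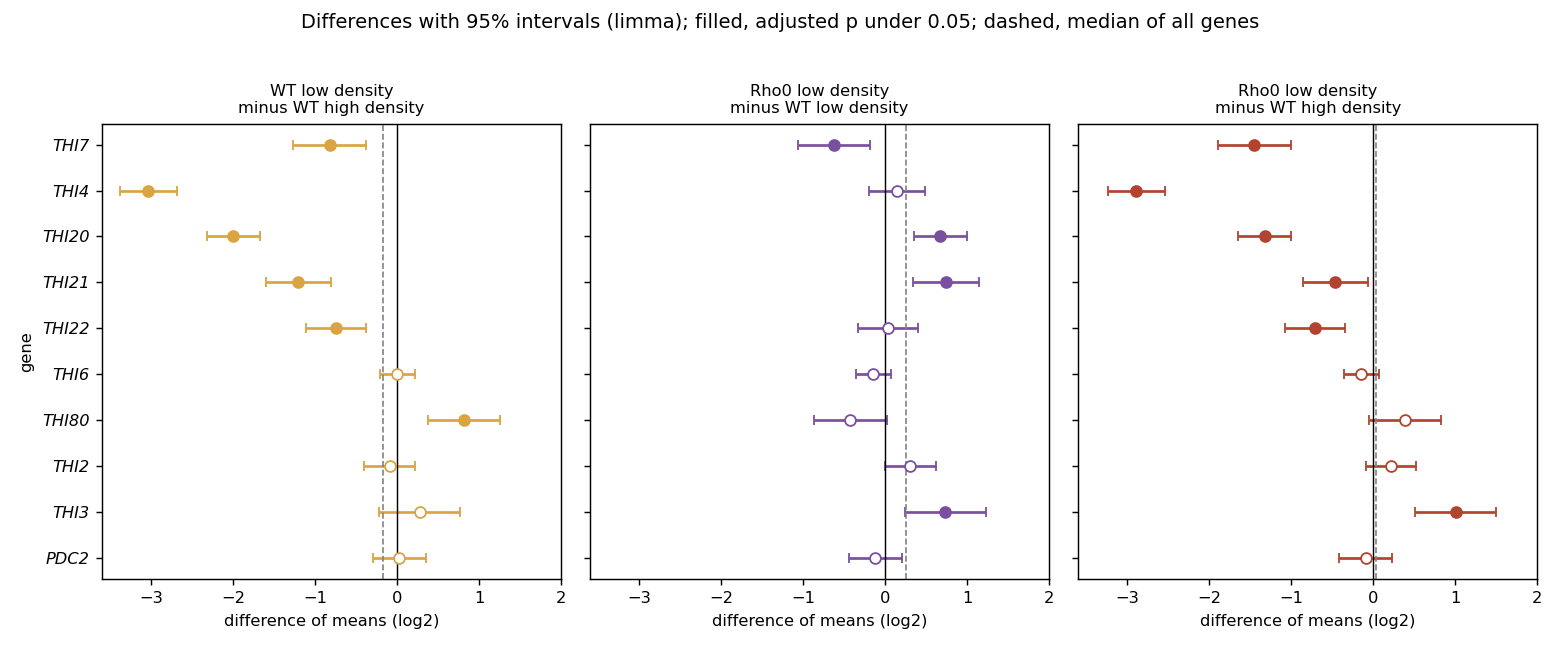
Difference of group means (log2, horizontal axes) for each of the 10 genes in the 3 comparisons, with 95% intervals from limma. Filled points passed an adjusted p of 0.05, open points did not, and the dashed line is the median of all 5449 genes (-0.17, 0.25 and 0.03). The 5 genes at the top, THI7 to THI22, lie left of 0 in both comparisons with WT high density, and THI4 lies farthest left, at -3.03 and -2.89.

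The second comparison set light cells without mitochondrial DNA against light cells of the wild type. Rho0 low density had more THI20, THI21 and THI3 mRNA and less THI7 mRNA than WT low density, each by less than 2-fold, while THI4 did not pass. Thus 3 of the 10 genes were higher and 1 was lower, against 44.6% of all genes higher and 22.7% lower. The 4 genes called fall short of the 67.3% of all genes called in either direction. None of the 10 was at least 2-fold higher or lower, against 17.7% and 10.1% of all genes. The median of the 10 genes was 0.09 log2, against 0.25 for all genes. Of the 10 genes, THI20 alone had groups without overlap (1 higher, 0 lower), where 37.9% of all genes were higher, 19.3% lower and 57.2% either way without overlap. The signal near the 5′ end of 25S ribosomal RNA was lower in Rho0 low density than in WT low density on every array. That near the 3′ end was slightly higher. The part of these signals in the values was not tested.

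The third comparison, Rho0 low density against WT high density, shares its arrays with the first and second, so that its values are not independent of theirs. THI4, THI7, THI20, THI21 and THI22 were lower and THI3 was higher, which makes 5 and 1 of the 10 genes, against 34.4% of all genes lower and 37.9% higher. The 6 genes called compare with 72.4% of all genes in either direction. The median of the 10 genes was -0.31 log2, against 0.03 for all genes. At least 2-fold lower were THI4, THI7 and THI20, 3 of the 10, against 17.8% of all genes, and THI3 was at least 2-fold higher, against 20.4%. The same 6 genes had groups without overlap, 5 lower and 1 higher, against 27.5% of all genes lower, 31.4% higher and 58.9% either way. The order of group means from low to high was WT low density, Rho0 low density and WT high density for THI4, THI20, THI21 and THI22. For THI4 and THI22 the lower pair in this order did not differ beyond its spread.

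The scaling of the arrays moved the median of all genes. In the comparison of WT low density with WT high density it was -0.17 as deposited, 0.00 with only S. cerevisiae genes in a quantile normalization, -0.25 with arrays aligned on the S. pombe median and -0.40 with arrays aligned on the spike-ins. The calls of THI4, THI7, THI20, THI21, THI22 and THI80 in that comparison held under all 3 other scalings, with THI4 between -3.26 and -2.98 log2. Quantile normalization added THI3 as a second rise (0.61, adjusted p = 0.0213), and of all called genes 49.8% were then higher, against 38.9% as deposited and 26.3% with the spike-ins.

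For Rho0 low density against WT low density the medians of all genes were 0.25 as deposited, 0.06, 0.35 and 0.94 in the same order of scalings, and the calls depended on them. With the spike-ins 8 of the 10 genes were higher and 0 lower, THI4 among them at 0.83 (limma adjusted p = 0.00103), while THI7 was no longer lower. All 10 differences were then above 0, so that 0 were lower at an unadjusted p under 0.05 as well. After quantile normalization 1 was higher (THI21) and 4 were lower (THI7, THI6, THI80 and PDC2), and THI20 and THI3 no longer passed. The S. pombe median added THI2 (0.40, adjusted p = 0.0208). Of all called genes 66.3% were higher as deposited, 54.4% after quantile normalization and 89.5% with the spike-ins. THI21 was the only one of the 10 genes called in the same direction under all 4 scalings in this comparison. The spike-ins averaged 9.66 ± 0.24 in Rho0 low density, 10.34 ± 0.24 in WT low density and 10.115 ± 0.20 in WT high density. Controls added at hybridization had the same order, at 11.29 ± 0.30, 11.67 ± 0.24 and 11.51 ± 0.31, with overlapping arrays. The part of labelling and hybridization in the spike-in scaling was not tested.

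For Rho0 low density against WT high density the medians were 0.03, 0.02, 0.05 and 0.48. THI4, THI7 and THI20 stayed lower and THI3 higher under all 4 scalings, with THI4 between -2.99 and -2.44. The calls of THI21 (-0.01, limma adjusted p = 0.977) and THI22 (-0.26, adjusted p = 0.274) were lost with the spike-ins, and that of THI21 also with the S. pombe median (-0.44, adjusted p = 0.0525). With the spike-ins THI2 and THI80 were higher, so that 3 genes were higher and 3 lower, and 72.7% of all called genes were higher, against 52.4% as deposited.

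**Figure D3:**
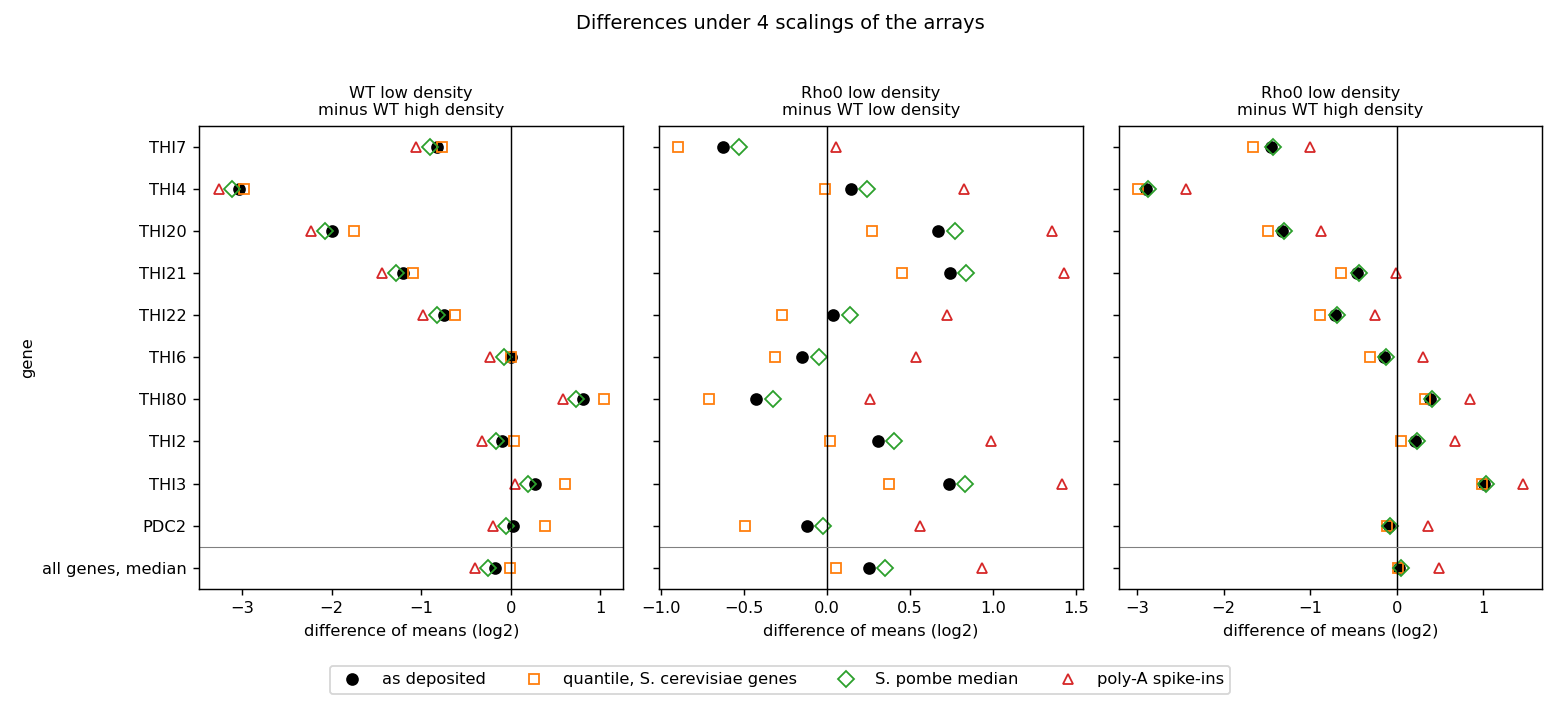
Difference of group means (log2, horizontal axes) of the 10 genes and the median of all genes in the 3 comparisons, under the deposited values and 3 other scalings of the arrays (marker shapes). In the left panel the shapes of THI4 lie together between -3.26 and -2.98, while in the middle panel the spike-in triangles lie right of 0 for all 10 genes and the squares of quantile normalization lie left of 0 for 6 of them.

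Other genes with a link to thiamine were listed beside the 10, and 9 of 14 were measured. Not all of them act in thiamine metabolism. SNZ3 and SNO3 are related to vitamin B6, and the role of PET18 is unknown. WT low density was lower than WT high density for 7 of the 9 and higher for 1, PHO3, a phosphatase of thiamine phosphates, against 41.1% of all genes lower and 26.2% higher. The count was 5 lower and 1 higher after quantile normalization and 7 and 0 with the spike-ins, where PHO3 did not pass (0.32 log2, limma adjusted p = 0.184). PHO3 averaged 3.57 ± 0.14 in Rho0 low density, 3.11 ± 0.35 in WT low density and 2.56 ± 0.19 in WT high density, the last at the background level, and was named after its values were seen. The leading falls were those of THI13 (YDL244W), of the family that makes the pyrimidine, at -1.71 ± 0.14 log2 (limma adjusted p = 5.84e-09), THI73 (YLR004C), a proposed permease, at -1.64 ± 0.13, and PET18 (YCR020C) at -1.24 ± 0.15. The THI13 probe set may bind related genes, and THI5, THI11 and THI12, its near-identical copies, have no probe set of their own here, so that its signal cannot be assigned to a single copy. The probe sets of SNZ3 and SNO3 carry the same limit, since SNZ2 and SNO2 have none of their own here. The median of the 9 genes was -0.94 log2, which is the value of SNZ3, against -0.17 for all genes.

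THI13 read 8.58, 8.67, 8.78, 8.64 and 8.53 in Rho0 low density. Its WT low density values were 6.87, 6.83, 7.19, 7.24 and 7.29. The WT high density arrays gave 8.52, 8.60, 9.22, 9.003 and 8.63. WT low density thus lay below both other groups, which overlapped, while THI4, the thiazole gene, was low in both light groups. Rho0 low density exceeded WT low density by 1.55 ± 0.14 log2 for THI13 (limma adjusted p = 2.01e-08), or 2.94-fold. From WT high density it differed by -0.16 with a 95% interval from -0.45 to 0.14.

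In the second comparison 6 of these 9 genes were higher in Rho0 low density and 0 were lower, against 44.6% and 22.7% of all genes. They were led by THI13, THI72 (YOR192C) at 1.27 ± 0.28 log2 and NRT1 (YOR071C) at 1.23 ± 0.25. THI72 and NRT1 code for relatives of the THI7 transporter, and NRT1 is known for the uptake of nicotinamide riboside. NRT1 averaged 6.41 ± 0.22 in Rho0 low density, 5.18 ± 0.55 in WT low density and 5.08 ± 0.51 in WT high density, so that the Rho0 group was highest for NRT1 and lowest for THI7. The count became 4 higher and 2 lower after quantile normalization and 9 and 0 with the spike-ins. Leaving out single arrays gave 5 to 6 higher and 0 lower. The third comparison had 2 higher (NRT1 and PHO3) and 4 lower, against 37.9% and 34.4% of all genes, with THI73 at -1.84 ± 0.13, PET18 at -1.27 ± 0.15 and NRT1 at 1.33 ± 0.25. Of the 4 lower, SNZ3 passed narrowly (-0.27, limma adjusted p = 0.0444). The count lower was 3 with the S. pombe median and 3 to 4 when single arrays were left out. With the spike-ins the count became 3 higher and 3 lower. Also 3 were lower with the compared arrays alone, the replicate number as a block or another variance prior, alternatives described below. TPC1 (YGR096W), the carrier of thiamine diphosphate into mitochondria, was named after its values were seen. It averaged 6.43 ± 0.16 in Rho0 low density, 6.57 ± 0.11 in WT low density and 7.60 ± 0.11 in WT high density, and its light groups were 2.26-fold and 2.05-fold below the dense one (limma adjusted p = 1.13e-08 and 1.21e-07).

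**Figure D4:**
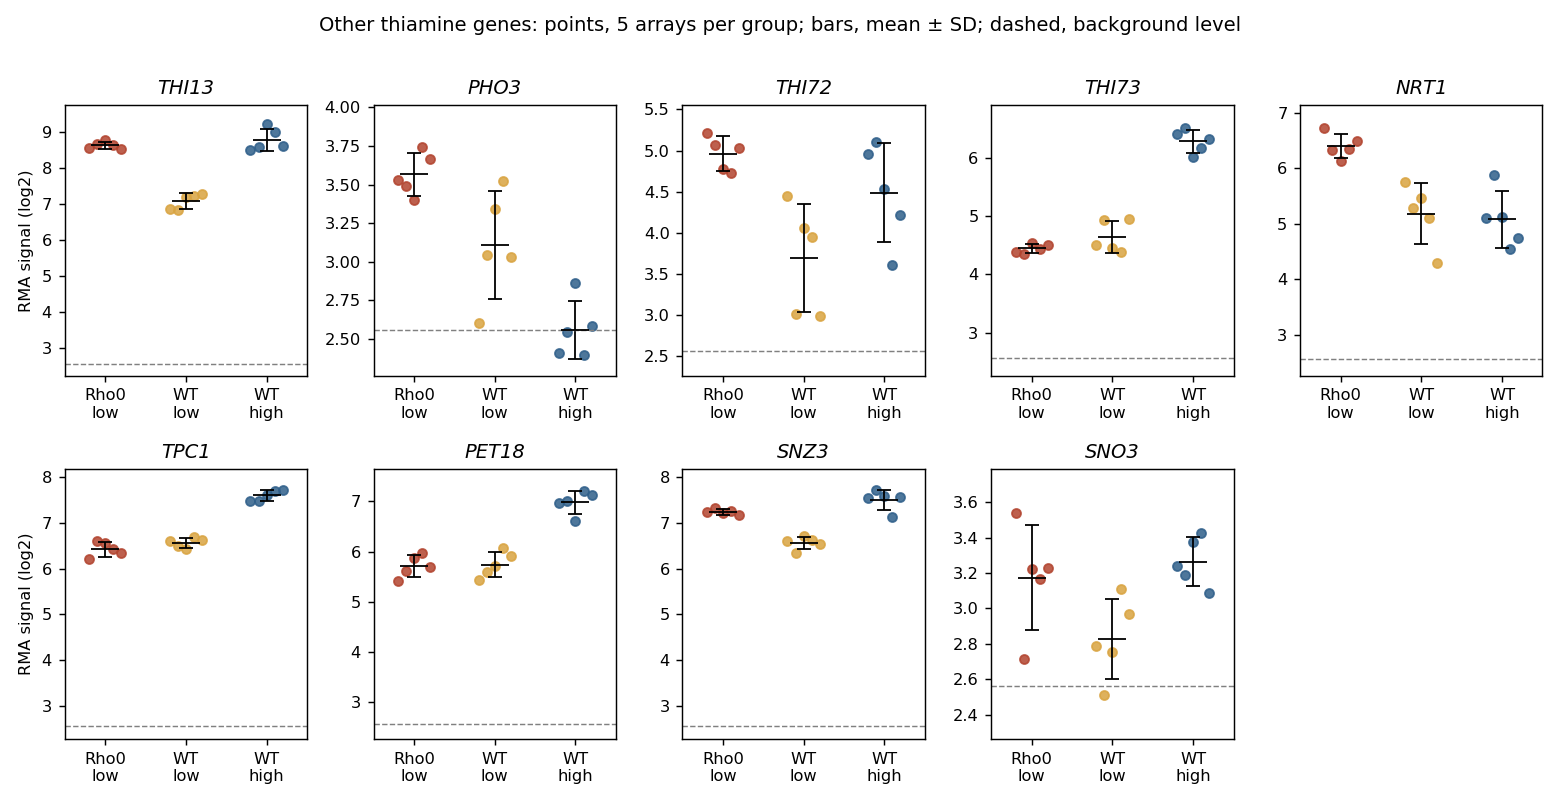
RMA signal (log2, vertical axes) of the 9 other thiamine genes on each array, with points for single arrays, black bars for mean ± SD of 5 arrays per group and a dashed line at the background level. THI73, TPC1 and PET18 are lower in both light groups than in WT high density, whereas THI13 and SNZ3 are lowest in WT low density.

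Of 11 listed enzymes that use thiamine diphosphate, 10 were measured. WT low density was lower than WT high density for 6 and higher for 1, against 41.1% and 26.2% of all genes. The count was 5 lower and 1 higher after quantile normalization and stayed at 6 and 1 with the spike-ins. PDC6 (YGR087C), a minor pyruvate decarboxylase, differed by -2.30 ± 0.18 log2, PDC1 (YLR044C), the main one, by -1.64 ± 0.15 and the minor transketolase gene TKL2 (YBR117C) by -1.20 ± 0.13 (limma adjusted p at most 3.04e-07). The mean of PDC6 in WT low density was 2.57, at the background level. TKL1 (YPR074C), the main transketolase, named after its values were seen, was the gene that rose, by 0.91 ± 0.13.

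Against WT low density, Rho0 low density had 6 of these enzyme genes higher and 1, ILV2, lower, against 44.6% and 22.7% of all genes. PDC5 (YLR134W), a pyruvate decarboxylase known to be repressed by thiamine, read 6.06, 6.19, 6.08, 6.26 and 6.29 in Rho0 low density. It read 4.92, 4.80, 5.13, 4.72 and 4.69 in WT low density. Its WT high density values were 5.27, 5.04, 5.35, 5.25 and 5.36. The Rho0 group stood above both WT groups without overlap, by 1.32 ± 0.11 log2 over WT low density (limma adjusted p = 7.2e-09) and by 0.92 ± 0.11 over WT high density (adjusted p = 5.26e-07). PDA1 (YER178W), a pyruvate dehydrogenase subunit, rose by 1.20 ± 0.27 and TKL2 by 0.99 ± 0.13 over WT low density. The count of enzyme genes became 5 higher and 1 lower after quantile normalization and 9 and 0 with the spike-ins. Leaving out single arrays gave 4 to 6 higher and 1 lower. Rho0 low density against WT high density had 5 higher and 4 lower, against 37.9% and 34.4% of all genes, with PDC6 at -1.85 ± 0.18, PDA1 at 1.69 ± 0.27 and the acetolactate synthase gene ILV2 (YMR108W) at -1.19 ± 0.12. Of the 5 higher, PDB1, named after its values were seen, passed narrowly (0.54, limma adjusted p = 0.0456). The count stayed at 5 and 4 after quantile normalization and became 5 and 3 with the spike-ins. It was 4 to 5 higher and 4 lower when single arrays were left out.

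**Figure D5:**
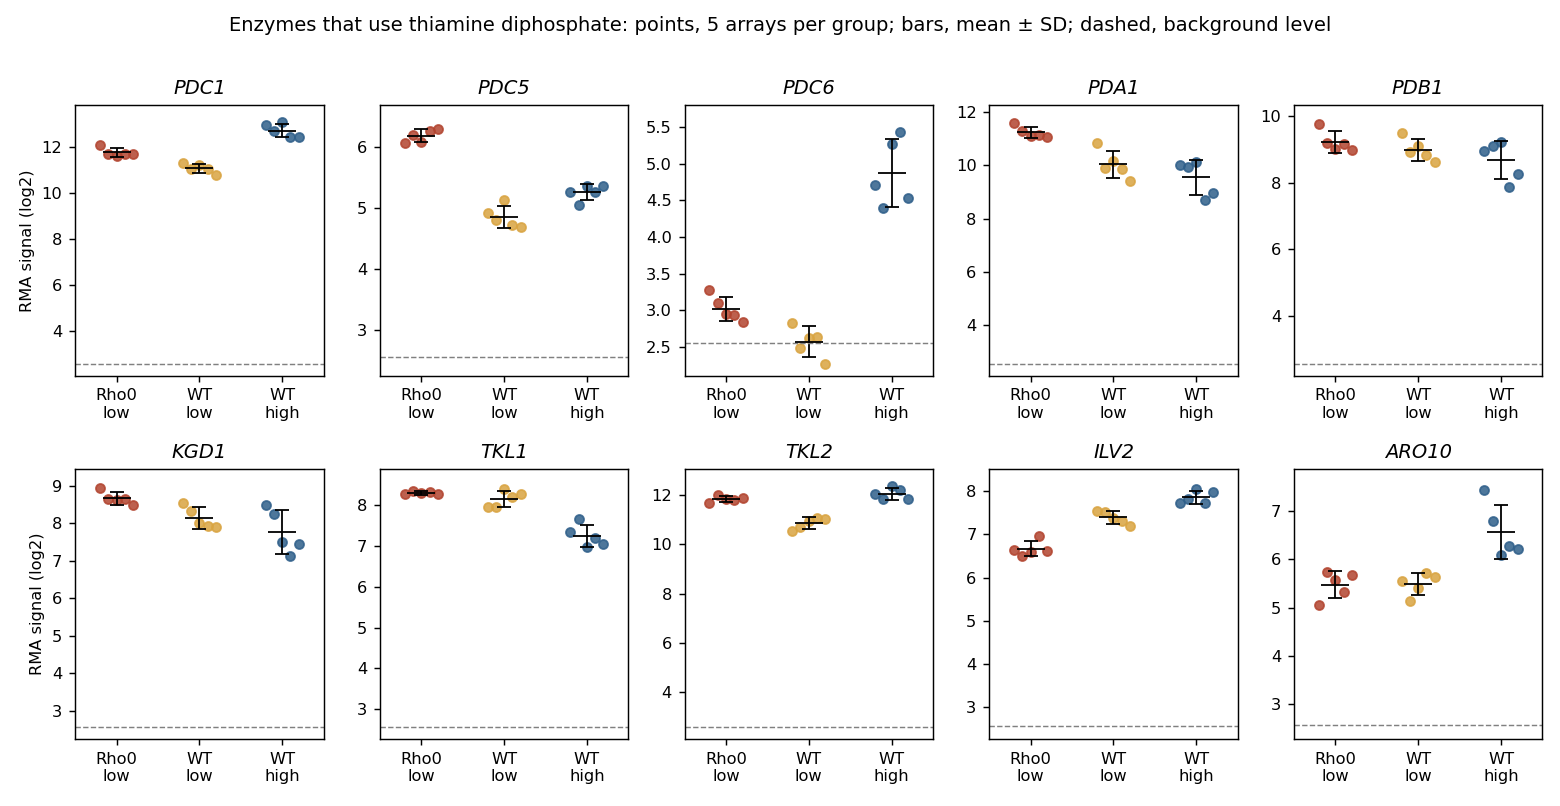
RMA signal (log2, vertical axes) of 10 genes for enzymes that use thiamine diphosphate on each array, with points for single arrays, black bars for mean ± SD of 5 arrays per group and a dashed line at the background level. PDC5 is highest in Rho0 low density (6.06 to 6.29), PDC1 is highest in WT high density, and PDC6 is at or near the background level in WT low density.

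Among the 10 genes, the profiles of THI4 and THI20 were most alike over the 15 arrays, with a Pearson r of 0.894, followed by THI4 and THI22 (0.844) and THI20 and THI21 (0.807). The least alike were THI21 and THI80, at -0.818. These correlations describe 3 groups of arrays and so mostly the distances between group means. For deviations from the group means, the correlation was -0.376 for THI4 and THI20 and 0.612 for THI4 and THI22. Of 4778 other named genes above the background level, the 5 most like THI4, the gene with the largest difference between group means, were MCH2, TRR2, IMP1, PHO90 and SHH4, with r from 0.990 to 0.994 over 15 arrays, and 320 had an r over 0.9. MCH2 codes for a relative of monocarboxylate permeases, TRR2 for the mitochondrial thioredoxin reductase and PHO90 for a phosphate transporter. MCH2 averaged 7.36 in Rho0 low density, 7.30 in WT low density and 11.32 in WT high density.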

How the data were processed

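RNA of 15 samples, 100 ng of total RNA each, was labelled for Affymetrix Yeast Genome 2.0 arrays, following the labels' protocols. Deposited were RMA values on a log2 scale, for which the submitters' processing notes name Affymetrix Expression Console. Its version and the genome build are not given in the sources used here. RMA brings all arrays to a shared distribution, so that a general change in RNA per cell is not seen. The table held 10928 probe sets on 15 arrays, 0 columns were not used and no arrays were identical. Through the annotation, 7244 probe sets had 1 gene, 1 had several and 3683 had none. Of the 7244, 5498 named a gene of the R64 reference table, which served for names only, and 1746 were taken as S. pombe. The probe set with the highest mean stood for a gene, which left 5449 genes.

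Group means were fitted to all 15 arrays with limma 3.58.1 (R 4.3.3), with Benjamini-Hochberg adjustment across 5449 genes. Every p in the text is from this fit, or from the same fit under a named alternative. The scripts were tested on simulated data. The alternatives were a fit to the arrays of the compared groups alone, the replicate number as a block, another variance prior, a filter on low values, 3 scalings, the mean of probe sets and each array left out in turn. For genes other than the 10 they were added after the data were seen. The members, lists and tests were chosen with earlier results of these data known. Named beside the 10 were the 3 called genes with the largest change of each other list in each comparison, and the 5 genes most like the member with the largest difference. The labels give no batch. No sequence was used here.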

Additional observations from a re-analysis of the deposited data

Results flagged for a closer look

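In 6 of 87 groups of 5 arrays, the highest or lowest array stood apart from the others by more than Dixon's 95% critical value of 0.71 for the gap over the range. Chance flags about 1 in 20 groups. THI7 was low in WT low density replicate 5, at 5.56 log2, next to 5.94. THI2 was high in WT high density replicate 3, at 6.16 next to 5.64, and THI3 was low in WT high density replicate 5, at 3.52 next to 4.10. Among the cofactor enzymes, Rho0 low density replicate 1 was high for PDC1 (12.09 next to 11.70) and for PDB1 (9.77 next to 9.19), and replicate 4 was high for ILV2 (6.97 next to 6.64). What set these arrays apart was not tested.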

How the results depend on the processing

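Of 690 values of the 10 genes under alternatives, 636 kept their direction and their side of the threshold, 12 lost the call, 19 gained one and 23 turned. For the genes added after seeing the data, 1222 of 1311 kept both, 57 lost the call, 9 gained one and 23 turned. A value that turned was counted only as such, even where its call changed too. Examples are THI7, which lost a call, and THI6, which gained one, between the light groups with the spike-ins. The poly-A scaling gave 8 members called (8 higher, 0 lower) in Rho0 low density against WT low density, with 3 higher and 3 lower for Rho0 low density against WT high density. Over all genes it gave 880 higher for WT low density against WT high density, 3955 higher and 464 lower in the comparison of the light groups, and 1022 lower for Rho0 low density against WT high density, where the deposited values gave 1425, 2430, 1235 and 1877. Quantile normalization gave 2 members higher in the first comparison, and 1 higher and 4 lower in the second. The cause was not tested.

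Values that turned in WT low density against WT high density were THI2 (0.033, quantile), PDC2 (-0.051, S. pombe median, and -0.20, spike-ins) and NRT1 (-0.13, spike-ins). In Rho0 low density against WT low density, THI4 (-0.0083) and THI22 (-0.27) turned with quantile normalization, PET18 (0.070) and ARO10 (0.083) with the S. pombe median, and THI7 (0.057), THI6 (0.53), THI80 (0.26), PDC2 (0.56), THI73 (0.48), TPC1 (0.54), PET18 (0.65) and ARO10 (0.67) with the spike-ins. In Rho0 low density against WT high density, SNO3 (0.0081) turned with quantile normalization, and THI6 (0.30), PDC2 (0.36), THI13 (0.30), SNZ3 (0.18), SNO3 (0.36) and TKL2 (0.25) with the spike-ins.

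Leaving out 1 array at a time, the members called in WT low density against WT high density numbered 1 to 2 higher and 5 lower. In Rho0 low density against WT high density they numbered 1 to 2 higher and 4 to 5 lower. In Rho0 low density against WT low density they numbered 3 to 4 higher and 1 to 2 lower. Values that passed 0 in this way were those of THI6 (-0.038 to 0.032), THI2 (-0.17 to 0.022), PDC2 (-0.079 to 0.12) and NRT1 (-0.041 to 0.32) in the first of these comparisons, SNO3 (-0.18 to 0.026) in the second and THI22 (-0.093 to 0.14), PET18 (-0.11 to 0.053) and ARO10 (-0.11 to 0.088) in the third. None of these was called with all arrays.

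Same-numbered arrays of different groups deviated together with r over 0.1 in 8 of 15 pairs (-0.05 to 0.37), and 5 of 15 correlated best with their own number. Between WT low density and WT high density r was 0.37, 0.04, 0.19, 0.22 and 0.22 for replicates 1 to 5. In the pairs with Rho0 low density it ran from -0.05 to 0.34. The labels state no pairing and the main fit used none, but these values do not exclude it. Replicates 1 and 5 exceeded 0.1 in all 3 pairs of groups, and whether some same-numbered arrays shared handling was not tested. With the replicate block the members called numbered 6, 4 and 6 in the 3 comparisons, as without it, all genes called 3776, 3769 and 4047. The block raised the enzyme genes called higher in WT low density against WT high density to 3, with PDA1 (0.49, adjusted p = 0.0268) and KGD1 (0.38, adjusted p = 0.0316), and lost SNZ3 in Rho0 low density against WT high density (-0.27, adjusted p = 0.0595). Probe sets not well above background, as PDC6 in WT low density, limit what a fold change shows, and small differences between 5 arrays a group may be missed.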
